A study of Mus musculus with 7 samples.

Results

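C-type lectin receptors are the sugar- and lipid-sensing surface proteins of macrophages and dendritic cells, and their expression was followed here in wound macrophages of the mouse on day 7 (d7) and day 3 (d3) after injury. Genes were taken by name: those whose single symbol on the array starts with Clec and a digit or with Cd209, together with Mrc1, Mrc2, Mgl2 and Colec12. This rule found 45 genes of the 30176 that had a probe set with 1 symbol, each with 1 probe set among the 65956 tested. The genes code for mannose and galactose receptors, the receptors of the Dectin-2 and Dectin-1 gene clusters, the Clec2 and Cd209 families, 5 other membrane receptors, and 5 secreted or intracellular proteins.

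Polyvinyl alcohol sponges were placed under the back skin of C57BL/6 mice of 8 to 10 weeks, and the cells that entered them were taken out on d7 or d3. CD11b was used to enrich myeloid cells on magnetic beads, and F4/80 was used to sort macrophages from them. Each of 4 d7 samples (replicates 5, 6, 7 and 8) and 3 d3 samples (replicates 1, 3 and 4) was hybridized to 1 Affymetrix mouse transcriptome array, and values are log2 signals. No group carried a transgene, a deletion or a drug, so the groups differed in the day of harvest alone as far as the labels go. Both sexes were used in the study, and the labels call the samples biological replicates without saying how many mice each held, so the p-values measure the spread between these samples.

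Receptors of this family bind carbohydrates, lipids or proteins through a C-type lectin domain, which in the sugar-binding members needs calcium. Some take up their ligand for degradation, some signal through the adaptors Fcer1g or Tyrobp and the kinase Syk, and others carry an inhibitory tyrosine motif that recruits phosphatases. In macrophages the mannose receptor and the galactose-type lectins are known as genes that interleukin 4 raises through the factor STAT6, and PU.1 is the factor on which the myeloid lineage depends.

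The sorted cells had the markers of their label. The level of Adgre1, which codes for F4/80, was 16.85 ± 0.02 on d7 and 16.84 ± 0.02 on d3, and that of Itgam, which codes for CD11b, was 17.10 ± 0.01 on d7 and 17.13 ± 0.03 on d3 (SD, n = 4 and 3). Adgre1 had the same value on d7 replicates 5 and 8 and d3 replicates 1 and 4, and Itgam on d7 replicates 6 and 7. Small SDs among such repeated values do not measure the spread of the samples. All 6 macrophage markers lay above the array background, with none past the test. That background was 5.39, the highest log2 value of an antigenomic control probe on any array. At an unadjusted p of 0.05 in limma, 2 of the macrophage markers were higher on d7 and 1 was lower, while 7.66% of all probe sets were called. Cd68 was 17.86 ± 0.04 on d7 and 17.53 ± 0.24 on d3, and Mertk was 11.59 ± 0.13 on d7 and 11.15 ± 0.20 on d3. Lyz2 was 19.36 ± 0.04 on d7 and 19.45 ± 0.02 on d3 (SD), and the days overlapped in none of these genes. All 8 measured markers of NK and T cells and all 6 of fibroblasts had means at the background. Of 5 B cell markers 1 lay above it, as did 4 of 11 dendritic cell, 3 of 4 platelet and erythroid and 2 of 5 endothelial markers, and none of these lists had a gene past the test. Nearest to it, and chosen after its values were seen, was the endothelial marker Kdr, with 5.43 ± 0.19 on d7 and 6.52 ± 0.05 on d3 (SD, adjusted p = 0.0567 in limma). Cd24a of the dendritic cell list, also chosen after its values were seen, was 7.86 ± 0.21 on d7 and 10.28 ± 1.02 on d3 (adjusted p = 0.275), and neither gene's days overlapped. Of the dendritic cell list, Batf3, Ccr7 and Kmo were also above background, and Flt3, Zbtb46, Xcr1, Itgae, Siglech, Ccr9 and Fscn1 were at it. Of the endothelial list, Pecam1 was also above background, with 7.33 ± 0.10 on d7 and 7.49 ± 0.14 on d3 (SD), and Cdh5, Tie1 and Esam were at it. Of the platelet and erythroid list, Pf4 was 19.27 ± 0.04 on d7 and 18.98 ± 0.20 on d3 (SD, adjusted p = 0.647 in limma), and its days did not overlap. Ppbp was 12.78 ± 0.23 on d7 and 12.82 ± 0.50 on d3, and Gp9 was 5.74 ± 0.08 on d7 and 5.71 ± 0.05 on d3, while Itga2b was at background. The B cell marker above background was Cd79b, with 6.40 ± 0.11 on d7 and 6.32 ± 0.12 on d3. The part of such cells in the receptor values was not tested. Among monocyte markers, Ly6c2 was 15.76 ± 0.30 on d7 and 17.78 ± 0.37 on d3, and Ccr2 was 12.70 ± 0.21 on d7 and 13.78 ± 0.12 on d3, with adjusted p-values of 0.0865 and 0.0852 in limma. None of the 5 measured monocyte markers passed, all 5 had a lower mean on d7, and the mean over the list was between 13.3 and 13.5 on d7 arrays and between 14.0 and 14.5 on d3 arrays. In such bulk samples fewer monocyte-like cells and less RNA per cell cannot be told apart, and the part of either in the receptor values below was not tested. One array stood apart in its controls: d3 replicate 3 had a median positive-control signal of 9.78, against 10.01 to 10.09 on the other 6 arrays.

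The 250 bases before the transcription start are printed for 6 receptors above background. These are the receptors whose d7 and d3 values did not overlap and for which RefSeq promoters of the build GRCm38.p6 were at hand. Of the 6, only Mrc1 passed the test between days. The bases are written in the direction of the gene. Capitals mark the letters of the PU.1 motif GAGGAA or of the STAT6 motif (TTC and GAA with any 4 bases between them) on either strand. The windows are chr2:14229164-14229413 for Mrc1, chr6:122921598-122921847 for Clec4a1, chr6:123049712-123049961 for Clec4b1, chr6:123261857-123262106 for Clec4d and chr6:129349994-129350243 for Clec12a, all on the plus strand, and chr6:40585806-40586055 on the minus strand for Clec5a.
Mrc1: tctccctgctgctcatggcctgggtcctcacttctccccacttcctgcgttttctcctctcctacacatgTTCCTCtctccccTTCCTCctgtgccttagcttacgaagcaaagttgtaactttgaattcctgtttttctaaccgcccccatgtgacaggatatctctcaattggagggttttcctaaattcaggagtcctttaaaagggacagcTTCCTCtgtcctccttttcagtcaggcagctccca
Clec4a1: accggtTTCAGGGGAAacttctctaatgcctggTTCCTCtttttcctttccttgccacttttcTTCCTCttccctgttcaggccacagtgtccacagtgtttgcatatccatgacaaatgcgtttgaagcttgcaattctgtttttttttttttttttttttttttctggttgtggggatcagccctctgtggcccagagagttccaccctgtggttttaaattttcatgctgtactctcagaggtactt
Clec4b1: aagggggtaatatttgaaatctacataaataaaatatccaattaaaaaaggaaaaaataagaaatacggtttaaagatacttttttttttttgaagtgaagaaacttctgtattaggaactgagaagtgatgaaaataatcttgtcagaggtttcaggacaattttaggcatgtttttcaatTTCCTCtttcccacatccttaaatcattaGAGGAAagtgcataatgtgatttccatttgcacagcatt
Clec4d: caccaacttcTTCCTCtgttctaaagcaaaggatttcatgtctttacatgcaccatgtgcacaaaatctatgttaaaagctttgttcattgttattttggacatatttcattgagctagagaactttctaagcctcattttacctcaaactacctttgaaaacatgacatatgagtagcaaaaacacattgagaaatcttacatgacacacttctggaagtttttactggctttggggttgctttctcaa
Clec12a: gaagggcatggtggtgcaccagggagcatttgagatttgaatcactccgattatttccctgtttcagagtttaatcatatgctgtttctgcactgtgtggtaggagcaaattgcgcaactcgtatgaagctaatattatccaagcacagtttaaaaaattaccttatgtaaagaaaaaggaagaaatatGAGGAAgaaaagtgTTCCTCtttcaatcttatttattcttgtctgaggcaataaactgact
Clec5a: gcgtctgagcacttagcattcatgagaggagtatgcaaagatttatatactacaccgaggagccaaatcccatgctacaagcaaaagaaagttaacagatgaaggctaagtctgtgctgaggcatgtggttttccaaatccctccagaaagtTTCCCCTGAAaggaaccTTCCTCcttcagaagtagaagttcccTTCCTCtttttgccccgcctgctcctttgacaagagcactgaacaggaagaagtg
All 6 windows held GAGGAA or its reverse complement, 3 times in Mrc1, 2 times in Clec4a1, Clec4b1, Clec12a and Clec5a, and 1 time in Clec4d. The STAT6 letters were found 1 time each in Clec4a1 and Clec5a and not in the Mrc1 window, and no match of one motif overlapped one of the other. Of the 35 receptor genes with a promoter in the table, 17 held GAGGAA (48.6%), against 25.9% of all 27025 genes, and 5 held the STAT6 letters (14.3%), against 6.76% of all genes. These are matches of letters and not measured sites.

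Of the 45 receptor genes, 1 passed the test in limma at an adjusted p of 0.05, and it was higher on d7. Over all probe sets 0.117% passed in either direction and 0.0637% passed as higher on d7. At an unadjusted p of 0.05, 8 of the 45 were called (17.8%), 5 higher and 3 lower, against 7.66% of all probe sets. In 20 of the 45 genes the mean lay above the array background, and in the other 25 it did not. Of all probe sets 30.0% lay above it, and all 8 genes called at the unadjusted p were among the 20. The 7.66% thus refers to a set with a larger part at background, here and beside the lists that lay mostly above it. The d7 and d3 values were fully apart in 8 of the 45 genes, with 5 higher and 3 lower on d7. All 8 were among the 20 above background, which makes 40% of the 20. Of all probe sets above background, 14.6% had groups that did not overlap. The median difference was −0.02 over the 45 genes and −0.00 over all probe sets (d7 minus d3, log2 units).

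**Figure D1:**
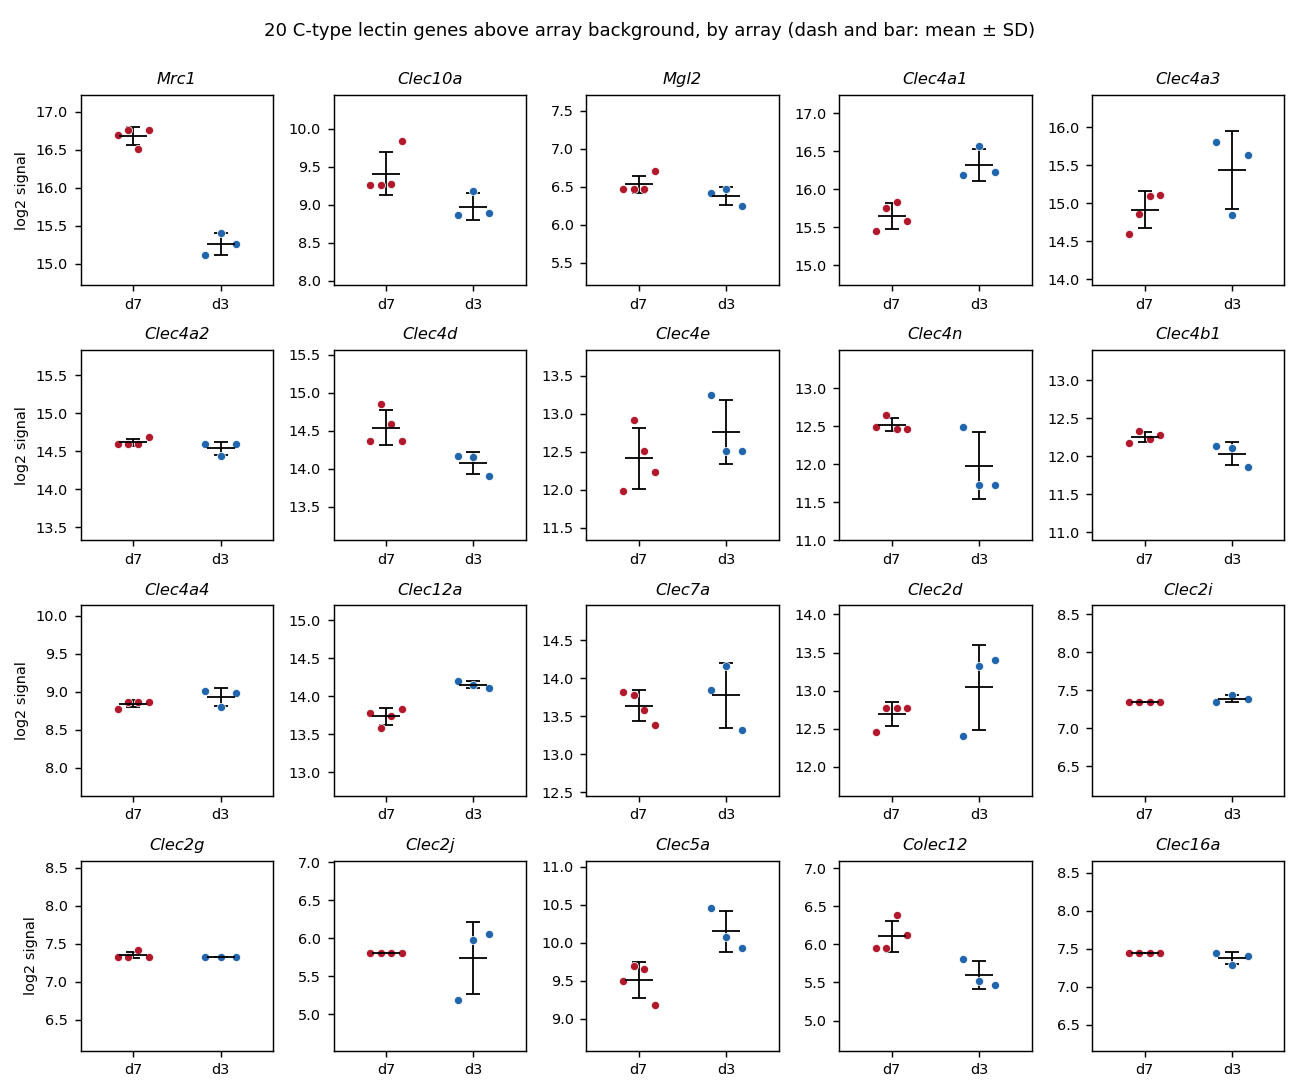
Log2 signal of the 20 receptor genes above array background on each array, with 4 d7 arrays on the left and 3 d3 arrays on the right of each panel; dashes and bars are the mean ± SD, and each panel spans the same number of log2 units around its own level. The d7 points of Mrc1 lie well above its d3 points, and those of Clec4a1, Clec12a and Clec5a lie below theirs.

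The largest difference among the receptors was in the mannose receptor Mrc1 (CD206), which binds mannose, fucose and sulfated sugars and carries glycoproteins and collagen fragments into the cell. Its level was 16.69, 16.76, 16.50 and 16.75 on d7 (replicates 5 to 8) and 15.11, 15.41 and 15.26 on d3 (replicates 1, 3 and 4). The lowest d7 array lay 1.10 log2 units above the highest d3 array. The difference was 1.42 ± 0.09 log2 units (SE, 95% interval 1.18 to 1.65), a 2.67-fold rise, with an adjusted p of 0.0263 in limma. Without any 1 array the difference stayed between 1.34 and 1.49, whereas its adjusted p lay between 0.0371 and 0.121 and was below the threshold only when d3 replicate 1 was the array left out. The other gene of this family, Mrc2, a collagen receptor of fibroblasts, had the same value of 4.00 on all 7 arrays, at the background.

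The galactose-type lectins Clec10a (Mgl1) and Mgl2 recognise galactose and N-acetylgalactosamine, and both mark alternatively activated macrophages. Clec10a was 9.27, 9.27, 9.27 and 9.83 on d7 and 8.87, 9.18 and 8.89 on d3. All 4 d7 values lay above all 3 d3 values, by 0.09 log2 units at the nearest, and the difference was 0.43 ± 0.18 (SE, 95% interval −0.003 to 0.87, adjusted p = 0.647 in limma). It was 0.29 without d7 replicate 8, the array with the high value. Mgl2 was 6.47 on 3 of the d7 arrays and 6.70 on replicate 8, and 6.42, 6.47 and 6.25 on d3, so the days overlapped. Its difference was 0.15 ± 0.08 (SE, 95% interval −0.06 to 0.35, adjusted p = 0.662), and it was 0.08 without d3 replicate 4 and 0.09 without d7 replicate 8.

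**Figure D2:**
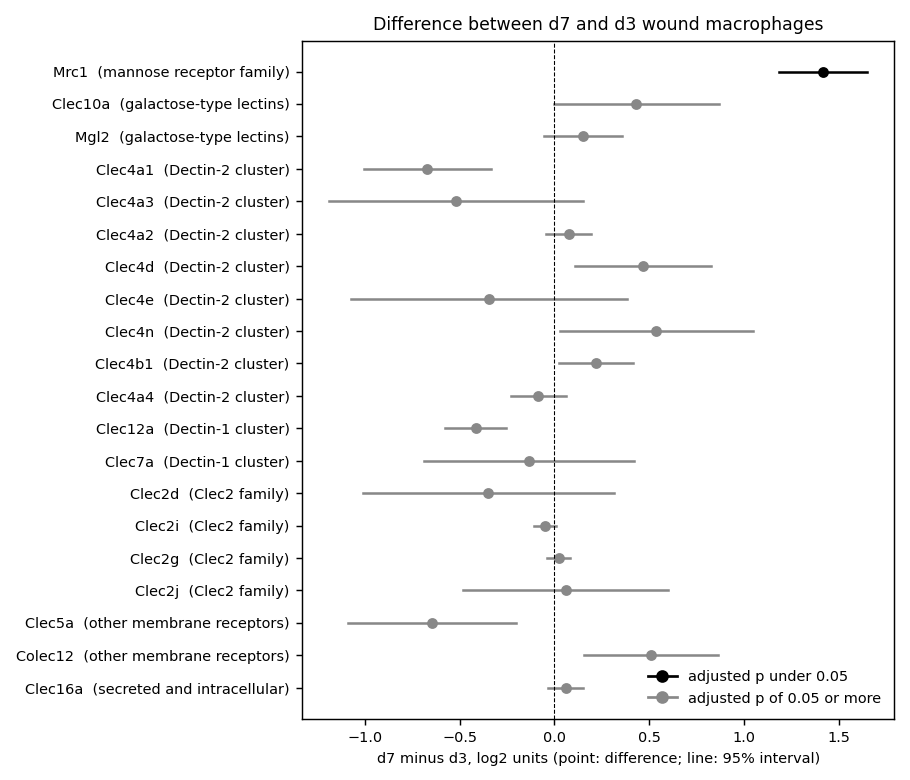
Difference in log2 signal, d7 minus d3, of the 20 receptor genes above array background, grouped by family; points are differences and lines are 95% intervals from limma. The black point is Mrc1 at 1.42, the only receptor past the test, and grey points did not pass.

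The Dectin-2 cluster on chromosome 6 holds 9 of the genes, 8 of them above background, and its members did not move one way: 4 had a higher and 5 a lower mean on d7, and none passed the test. In the order of the genes on the chromosome, Clec4a1 and Clec4a3 stood at one end with differences of −0.67 and −0.52. Clec4n and Clec4d, next to each other near the other end, had differences of 0.54 and 0.47, and Clec4e at that end had −0.34. Sequences of Clec4a1 to Clec4a4 are alike, and whether their probes also bind each other's transcripts was not tested.

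**Figure D3:**
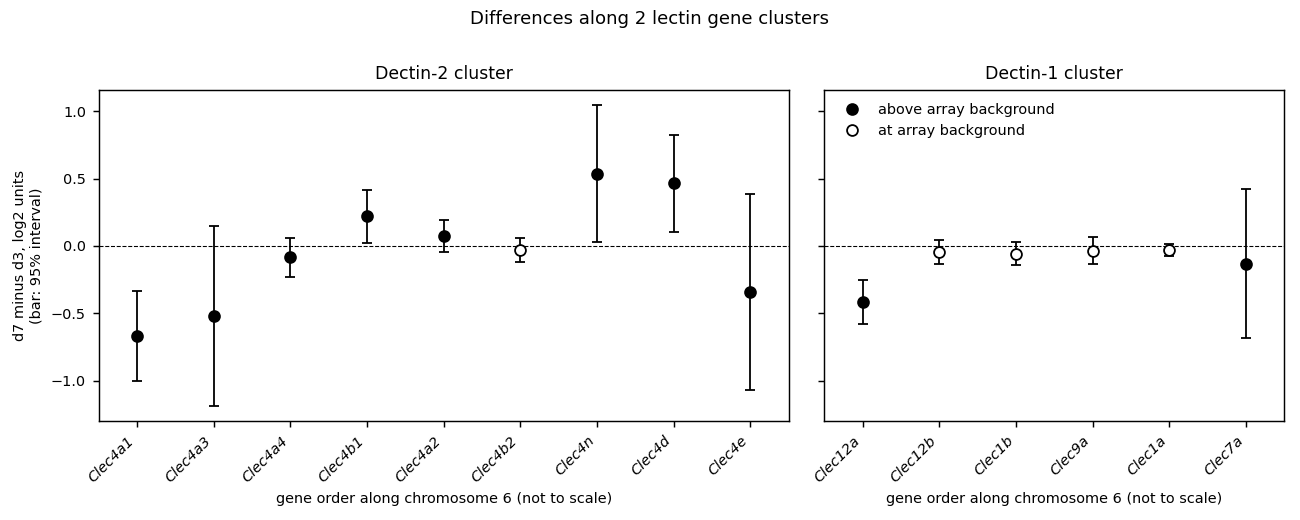
Difference in log2 signal, d7 minus d3, with 95% intervals, for the 9 genes of the Dectin-2 cluster and the 6 of the Dectin-1 cluster in their order along chromosome 6 (not to scale); filled points are genes above array background and open points genes at background. Clec4a1 and Clec4a3 lie below 0, Clec4n and Clec4d above 0, and Clec12a is the gene of the Dectin-1 cluster farthest from 0.

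Clec4a1 and Clec4a3 belong to the group of the dendritic cell immunoreceptor DCIR, which is the product of Clec4a2 and carries an inhibitory motif. Clec4a1 was 15.45, 15.75, 15.83 and 15.58 on d7 and 16.18, 16.56 and 16.22 on d3. All 4 d7 arrays were lower than all 3 d3 arrays. The difference was −0.67 ± 0.13 (SE, 95% interval −1.005 to −0.337), with an unadjusted p of 0.00293 and an adjusted p of 0.284 in limma, and it stayed between −0.74 and −0.55 without any 1 array. Clec4a3 was 14.59, 14.85, 15.09 and 15.11 on d7 and 15.81, 14.85 and 15.64 on d3. Here d3 replicate 3 fell among the d7 values, and the difference was −0.52 ± 0.27 with that array (SE, adjusted p = 0.662), −0.81 without it and −0.33 without d3 replicate 1.

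Clec4a2 itself showed no such gap: it was 14.59 on 3 of the d7 arrays and 14.69 on replicate 8, and 14.59, 14.44 and 14.59 on d3, with a difference of 0.07 (95% interval −0.05 to 0.19) that was 0.03 without d3 replicate 3 and 0.05 without d7 replicate 8. Clec4a4 (DCIR2), known on a subset of dendritic cells, was 8.87 on 3 of the d7 arrays and 8.78 on replicate 5, and 9.01, 8.80 and 8.98 on d3, with a difference of −0.09 (95% interval −0.23 to 0.06) that was −0.15 without d3 replicate 3 and −0.04 without d3 replicate 1. Neither passed. Clec4b1 (DCAR), an activating receptor that pairs with Fcer1g, was 12.17, 12.34, 12.23 and 12.28 on d7 and 12.14, 12.10 and 11.86 on d3. Its d7 values lay above its d3 values by only 0.03 log2 units at the nearest, and the difference was 0.22 ± 0.08 (SE, adjusted p = 0.647) and 0.13 without d3 replicate 4. Clec4b2, its neighbour, was at the background, with values between 4.88 and 5.01 over all 7 arrays.

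Clec4n (Dectin-2), Clec4d (MCL) and Clec4e (Mincle) all signal through Fcer1g; Dectin-2 binds fungal mannan, and MCL and Mincle bind mycobacterial cord factor. Clec4d was 14.36, 14.85, 14.59 and 14.36 on d7 and 14.17, 14.15 and 13.90 on d3. Its days did not overlap, and its difference was 0.47 ± 0.14 (SE, 95% interval 0.11 to 0.82, adjusted p = 0.629). Clec4n was 12.49, 12.65, 12.47 and 12.47 on d7 and 12.49, 11.73 and 11.73 on d3. All 4 d7 arrays and d3 replicate 1 thus lay close together, and the other 2 d3 arrays were lower. The difference was 0.54 ± 0.20 (SE, adjusted p = 0.647), and it was 0.79 without d3 replicate 1, when it passed with an adjusted p of 0.0425 in limma. Clec4e was 11.98, 12.92, 12.51 and 12.23 on d7 and 13.24, 12.51 and 12.51 on d3. Its days overlapped, and its difference was −0.34 ± 0.29 (SE, 95% interval −1.07 to 0.39). It was −0.10 without d3 replicate 1, the highest of the 7 arrays, and −0.20 without d7 replicate 5, the lowest.

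All 3 of these receptors are known on neutrophils as well as macrophages, and each had its highest d7 value in replicate 6. So did Mrc1, Clec4b1 and Clec5a, which makes 6 of the 45 receptor genes with their single highest d7 value in that array, against 1 in replicate 5, 8 in replicate 7 and 6 in replicate 8. Among the 20 genes above background the counts were 6 in replicate 6, 1 in replicate 5, 3 in replicate 7 and 5 in replicate 8. The neutrophil marker S100a8 was 12.06 in d7 replicate 6, against 9.76 to 10.62 on the other 3 d7 arrays and 10.22 to 10.76 on d3. S100a9 was 10.95 in d7 replicate 6, against 8.68 to 9.33 on the other d7 arrays and 9.21 to 9.43 on d3. Cxcr2 was 8.31 there, against 7.23 to 7.45 on the other d7 arrays and 7.43 to 7.50 on d3. Of the 9 neutrophil markers 4 were above background, and Mpo, Elane, Ltf, Camp and Ly6g were at it. In 5 of the 9 the single highest value was in d7 replicate 6. These were S100a8, S100a9 and Cxcr2, and also Camp and Elane, whose values at background limit what that count can show. The mean over the list was between 5.96 and 6.65 on d7 arrays and between 6.52 and 6.77 on d3 arrays. One of the list, Retnlg, passed the test, with 6.36 ± 0.40 on d7 and 11.21 ± 0.80 on d3 (SD, adjusted p = 0.0432). Without d7 replicate 6 the differences were 0.36 for Clec4d, 0.49 for Clec4n and −0.51 for Clec4e, so all 3 kept their sign. The part of neutrophil RNA in these values was not tested.

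**Figure D4:**
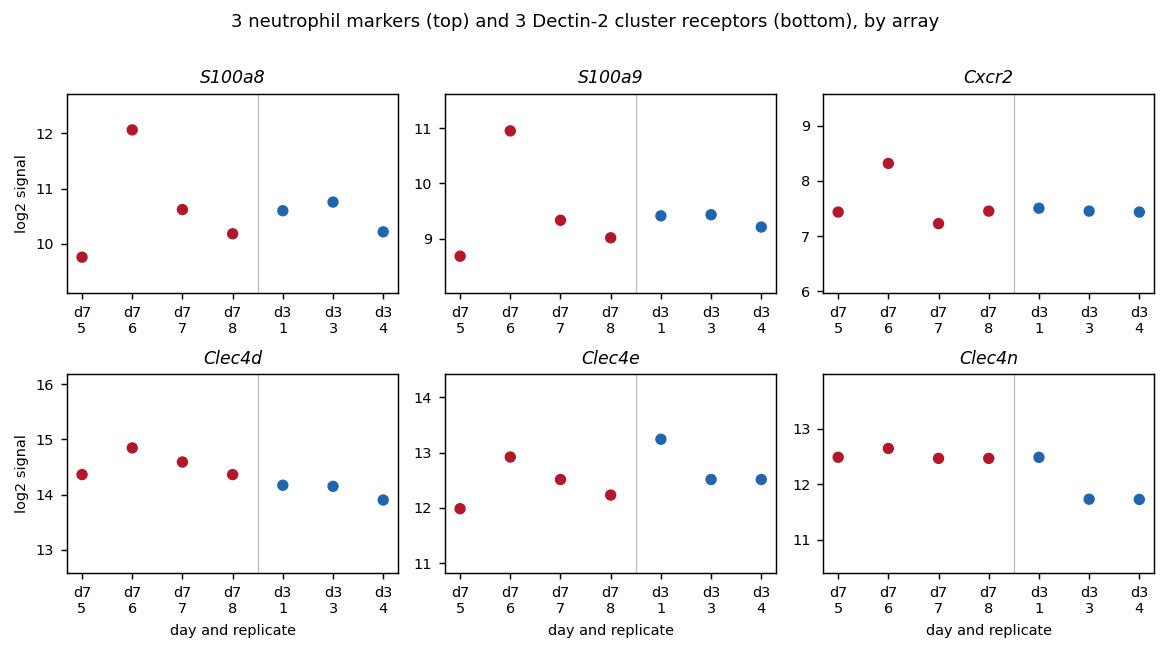
Log2 signal of 3 neutrophil markers (top row) and of Clec4d, Clec4e and Clec4n (bottom row) on each array, d7 in red on the left and d3 in blue on the right, with the replicate number under each point and the same span of log2 units in every panel. On the array of d7 replicate 6, S100a8 stands at 12.06, S100a9 at 10.95 and Cxcr2 at 8.31, and the 3 receptors have their highest d7 value there.

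In the Dectin-1 cluster, farther along chromosome 6, 2 of the 6 genes were above background and none passed. Clec12a (MICL), an inhibitory receptor for uric acid crystals, was 13.78, 13.58, 13.74 and 13.84 on d7 and 14.20, 14.14 and 14.11 on d3. All 4 d7 arrays were lower than all 3 d3 arrays, which were close together. The difference was −0.42 ± 0.07 (SE, 95% interval −0.58 to −0.25), with an unadjusted p of 0.000864 and an adjusted p of 0.171 in limma. It stayed between −0.45 and −0.36 without any 1 array. When the test was run only on probe sets above background, Clec12a passed too.

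Clec7a (Dectin-1), the receptor for fungal beta-glucan, was 13.82, 13.78, 13.58 and 13.38 on d7 and 13.84, 14.16 and 13.31 on d3. The d3 arrays spread more widely than the d7 arrays and enclosed them, and the difference was −0.13 ± 0.22 (SE, 95% interval −0.69 to 0.42). It turned to 0.06 without d3 replicate 3 and was −0.36 without d3 replicate 4. The other 4 genes of the cluster were at background on both days: Clec1a, Clec1b (the podoplanin receptor CLEC-2, best known on platelets), Clec9a (the receptor by which cross-presenting dendritic cells sense dead cells) and Clec12b, with values between 3.51 and 5.12.

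The Clec2 family codes for ligands of the NK cell receptors of the Nkrp1 family. Clec2d (Clr-b), the ligand of an inhibitory NK receptor, was 12.46, 12.77, 12.77 and 12.77 on d7 and 12.40, 13.33 and 13.40 on d3. The 2 high d3 arrays stood above all d7 arrays and d3 replicate 1 below them, and the difference was −0.35 ± 0.27 (SE, 95% interval −1.01 to 0.32). It was −0.67 without d3 replicate 1, −0.21 without d3 replicate 3 and −0.17 without d3 replicate 4. Clec2i was 7.34 on all d7 arrays and between 7.34 and 7.44 on d3, and Clec2g was between 7.33 and 7.42 on d7 and 7.33 on all d3 arrays. The pseudogene Clec2j was 5.80 on all d7 arrays and 5.19, 5.98 and 6.05 on d3, so its difference of 0.06 turned to −0.22 without d3 replicate 1. None of these 4 passed, and Clec2e, Clec2f, Clec2h, Clec2l and Clec2m were at background, between 3.36 and 5.30.

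All 7 genes of the Cd209 family, Cd209a to Cd209g, which code for mouse relatives of the dendritic cell lectin DC-SIGN, were at background on both days. Their values ran from 3.71 to 5.30, and their differences from −0.10 to 0.00. Cd209d and Cd209f had 1 value each on all 7 arrays.

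Among the other membrane receptors, Clec5a (MDL-1) is an activating receptor of myeloid cells that signals through Tyrobp and Hcst. It was 9.50, 9.69, 9.65 and 9.18 on d7 and 10.45, 10.07 and 9.93 on d3. All 4 d7 arrays were lower than all 3 d3 arrays, by 0.24 log2 units at the nearest. The difference was −0.65 ± 0.18 (SE, 95% interval −1.09 to −0.20), with an unadjusted p of 0.0124 and an adjusted p of 0.543 in limma. Colec12, a scavenger receptor with a collagen-like stalk, was 5.96, 5.96, 6.39 and 6.12 on d7 and 5.81, 5.52 and 5.47 on d3. Its days did not overlap, and its difference was 0.51 ± 0.14 (SE, 95% interval 0.16 to 0.86, adjusted p = 0.550), with all values close above the background. Clec4f (of Kupffer cells), Clec4g (of liver sinusoidal endothelium) and Clec14a (of endothelium) were at background, between 3.25 and 3.89.

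Of the 5 secreted or intracellular proteins, Clec16a, an intracellular protein linked to autophagy, was 7.44 on all d7 arrays and 7.44, 7.29 and 7.41 on d3. Its difference was 0.06 ± 0.04 (SE, 95% interval −0.03 to 0.15), and it was 0.01 without d3 replicate 3. Clec3a, Clec3b (tetranectin), Clec11a and Clec18a were at background, between 3.10 and 4.04. Many receptor probe sets had the same value on several arrays: 7 of the 45 had 7 different values and 3 had only 1, and how the processing gave these repeats is not known, so small SDs among repeated values do not measure the spread of the samples.

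Of the signalling proteins behind these receptors, 27 of 32 listed adaptors, kinases, phosphatases and transcription factors were measured, 26 of them above background, and none passed the test. At an unadjusted p of 0.05 in limma, 1 was higher (Tec) and 4 were lower (Ptpn6, Rela, Relb and Btk), while 7.66% of all probe sets were called. The median difference was −0.04, against −0.00 over all probe sets. Tyrobp, the adaptor of Clec5a, was 17.28 ± 0.06 on d7 and 17.37 ± 0.12 on d3. Fcer1g, the adaptor of Dectin-2, MCL and Mincle, was 14.82 ± 0.11 on d7 and 15.31 ± 0.52 on d3 (SD, n = 4 and 3). Ptpn6, the phosphatase SHP-1 recruited by inhibitory receptors such as Clec12a, was 13.36 ± 0.09 on d7 and 13.88 ± 0.41 on d3 (adjusted p = 0.647).

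Of 35 other proteins with a C-type lectin domain, 33 were measured, 8 were above background and none passed. At an unadjusted p of 0.05 in limma, 1 was higher (Layn) and 4 were lower (Cd69, Olr1, Klra2 and Prg2), while 7.66% of all probe sets were called. The median difference was −0.01. Cd93 was 14.10 ± 0.04 on d7 and 14.16 ± 0.13 on d3, Cd72 was 10.84 ± 0.08 on d7 and 10.82 ± 0.52 on d3, and Cd302 was 10.76 ± 0.10 on d7 and 10.55 ± 0.25 on d3. Chosen after their values were seen, Cd69, an early activation antigen, was 6.68 ± 0.20 on d7 and 7.95 ± 0.52 on d3 (adjusted p = 0.296). The oxidized lipoprotein receptor Olr1 was 8.88 ± 0.27 on d7 and 9.95 ± 0.59 on d3 (adjusted p = 0.584).

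Because Mrc1, Clec10a and Mgl2 are known as interleukin 4 targets, 21 other genes of that response were listed, of which 18 were measured and 11 lay above background. Of these 1 passed, Il4ra, the receptor chain for interleukin 4 itself, with 16.98, 17.14, 16.88 and 17.07 on d7 and 15.42, 15.20 and 15.76 on d3. The d7 arrays were all above the d3 arrays, and the difference was 1.56 ± 0.14 (SE, 95% interval 1.20 to 1.91, adjusted p = 0.0480 in limma). Its adjusted p lay between 0.0583 and 0.197 whichever array was left out. At an unadjusted p of 0.05 in limma, 3 genes of the list were higher (Il4ra, Cd163 and Cd200r1) and 3 lower (Retnla, Ccl24 and Alox15). Over all probe sets 7.66% were called at that p. The median difference of the list was −0.05. Arg1 was 17.90 ± 0.11 on d7 and 17.64 ± 0.51 on d3, and Fn1 was 16.98 ± 0.14 on d7 and 17.18 ± 0.30 on d3. Chosen after their values were seen, Alox15, the lipoxygenase of alternatively activated macrophages, was 5.18 ± 0.37 on d7 and 8.60 ± 0.85 on d3 (adjusted p = 0.101), and the inhibitory receptor Cd200r1 was 10.94 ± 0.14 on d7 and 10.14 ± 0.19 on d3 (adjusted p = 0.128). Retnla was 5.96 ± 0.46 on d7 and 7.05 ± 0.41 on d3 (adjusted p = 0.589 in limma). Ccl24 was 9.03 ± 0.28 on d7 and 10.33 ± 0.84 on d3 (adjusted p = 0.638), and the days overlapped in neither of these 2. Cd163 was 5.68 ± 0.18 on d7 and 5.37 ± 0.13 on d3 (adjusted p = 0.647), and its days overlapped.

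**Figure D5:**
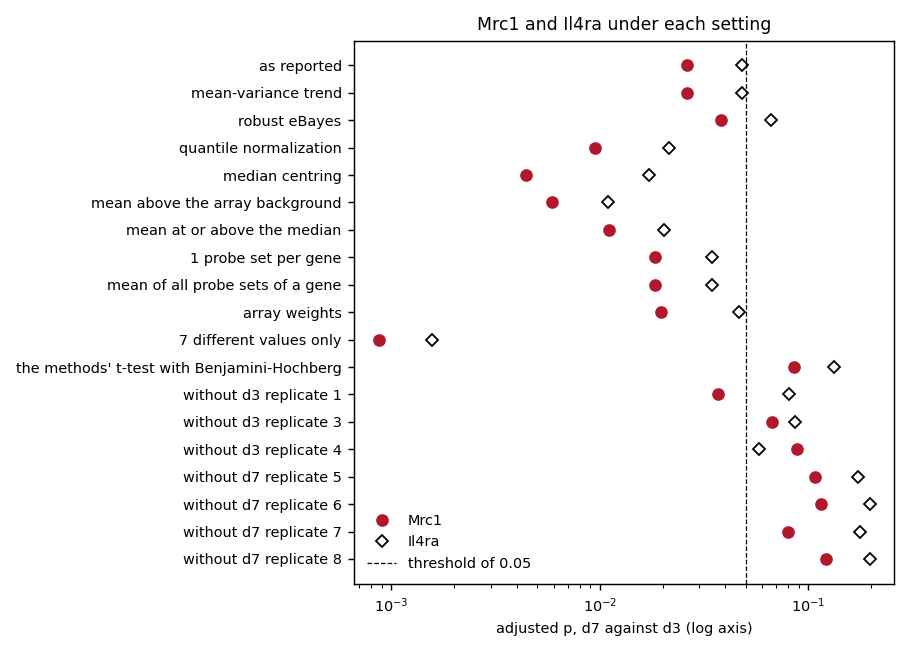
Adjusted p of Mrc1 (red circles) and Il4ra (open diamonds), d7 against d3, as reported and under each other setting, on a log axis; the dashed line is the threshold of 0.05. Mrc1 lies at 0.0263 as reported and crosses the line when any array but d3 replicate 1 is left out and under the methods' own test after Benjamini-Hochberg adjustment.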

How the data were processed

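RNA of wound macrophages was measured on 7 arrays, 4 of d7 and 3 of d3. The authors amplified and labelled the RNA, hybridized it and deposited 1 log2 value for each of 72688 probe sets and array. Affymetrix Expression Console is named in the submitters' processing notes (version not given), and the methods name Genespring GX and dChip for the study's own analysis. The normalization between arrays, the genome build of the array and the cause of repeated values are not given in the sources used here. The array medians ran from 4.14 to 4.22, and the number of arrays limits the precision.

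After 6732 array controls were left out, 65956 probe sets were tested for a difference between days on the deposited log2 values. The linear model of limma 3.58.1 (R 4.3.3) with moderated variances was used without covariates, and two-sided p-values were adjusted by Benjamini-Hochberg over all of them and a threshold of 0.05. The platform annotation gives 1 symbol for 30638 of these probe sets, several for 2176 and none listed for 33142, and only those with 1 symbol were named. Differences are d7 minus d3, and folds are powers of 2 of them. Each receptor gene with a mean above the array background on either day is given with its values, the others by name and range. From each list of other genes, those that passed are given, with up to 3 of the highest mean in the lists that are not cell markers. From the marker lists some genes are given with values and others are only named or counted. Further genes of these lists are also given, some chosen after their values were seen. The lists are signalling adaptors and kinases, other lectin domain proteins, the interleukin 4 response, and markers of macrophages, monocytes, neutrophils, dendritic cells, NK and T cells, B cells, platelets and erythroid cells, endothelium and fibroblasts. The receptor genes and the lists were chosen with earlier results of these data known. Listed genes without a probe set of 1 symbol, such as Lyn and Nfkb1, were not analysed here.

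RefSeq promoters of the build GRCm38.p6 were matched by gene ID for 35 of the 45 genes and searched with Python 3.11.15. They were not found for Clec10a, Clec2j, Clec4n, Clec2f, Clec1a, Clec4a4, Mrc2, Colec12, Clec3a and Clec3b. Protein sequences were not used here. Results were recomputed with quantile normalization, with median centring, with robust eBayes or a mean-variance trend, with filters at the array background and at the median level, with 1 probe set per gene or the mean of its probe sets, with array weights, with only probe sets of 7 different values, with the methods' t-test adjusted or not, and without each array. The fit was tested on simulated data of independent normal values. These held no repeated values, so that test cannot show how the repeats of the real data affect the fit.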

Additional observations from a re-analysis of the deposited data

Results flagged for a closer look

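The 20 receptor genes above background were examined, and in 7 of the 17 among them whose 4 d7 values were not all equal, 1 d7 array lay apart from the other 3 by more of the group's whole range than Dixon's limit for 4 samples, which chance passes in about 1 of 20 groups. Repeated values make such gaps common here, since 3 equal arrays leave the whole range to the remaining one. In replicate 8, Clec10a was 9.83 against 9.27 on the other d7 arrays, Mgl2 was 6.70 against 6.47, and Clec4a2 was 14.69 against 14.59. In replicate 5, Clec2d was 12.46 against 12.77, and Clec4a4 was 8.78 against 8.87. In replicate 6, Clec4n was 12.65 against 12.47 to 12.49, and in replicate 7, Clec2g was 7.42 against 7.33. The cause was not tested.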

How the results depend on the processing

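Over the 20 receptor genes above background, 347 of 367 differences under the alternatives kept their direction and their side of the threshold. For 19 of the 20 genes, keeping their side meant failing to pass again, so that count says little about Mrc1. All 7 differences that lost the threshold were of Mrc1, under the adjusted t-test and without any 1 array but d3 replicate 1. The receptor count of 1 of 45 became 2 of the 20 tested with a filter at the array background (Mrc1 and Clec12a). Under that filter 374 of all 19774 probe sets passed. It became 3 of the 7 tested among probe sets with 7 different values (Mrc1, Clec4a1 and Clec12a), where 824 of all 12129 passed. With the methods' t-test it was 0 of 45 after Benjamini-Hochberg adjustment, where 13 of all 65956 passed. Without adjustment it was 7 of 45, where 3652 of all 65956 passed. Without 1 array it lay between 0 and 2, with 2 (Mrc1 and Clec4n) only without d3 replicate 1 and 0 without any other array. Over all probe sets the count of 77 became 169 with quantile normalization, 223 with median centring, 374 above the background, 208 at or above the median level, 824 with 7 different values, 13 with the adjusted and 3652 with the unadjusted t-test, and between 1 and 212 without 1 array. The interleukin 4 count of 1 became 0 with robust eBayes, 3 with quantile normalization, 2 with median centring, 3 above the background, 2 at or above the median, 3 with 7 different values, 0 with the adjusted and 5 with the unadjusted t-test, and 0 without any 1 array. The unadjusted t-test called 4 of the signalling list and 4 of the other lectin domain proteins. At the same unadjusted p, limma called 1 higher and 4 lower in each of these lists, and after adjustment it called 0. Among probe sets with 7 different values, 1 of the other lectin domain proteins passed in limma. The difference of Clec7a was −0.13 and reversed to 0.0241 with array weights, and it lay between −0.362 and 0.0587 without 1 array, above 0 only without d3 replicate 3. That of Clec2j lay between −0.217 and 0.214 without 1 array, below 0 only without d3 replicate 1. The cause of these changes was not tested. No paired analysis was possible because d7 and d3 share no replicate number. Signals near the background limit what can be read from 25 of the 45 genes, and 4 against 3 arrays limit the rest.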
